A study of Homo sapiens with 8 samples.

Results

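The response of human glioma cells to ionizing radiation alone was read from 4 of the 8 arrays of the series. These are the arrays whose titles name 8.5 Gy, set against those titled as control. U87 is an established human glioma cell line, grown here as a culture. The protocols in the labels have cells plated 24 h ahead, left untreated or given 8.5 Gy, and incubated for a further 4 h before RNA was taken. No ligand was given to either group. Whether control cells were handled through a sham exposure, and how many cultures were used, is not given in the sources used here. The other 4 arrays hold cells given 50 µM of a ligand that binds the minor groove of DNA, alone or 1 h before 8.5 Gy, and enter here through the normalization, through the rank of the control and radiation arrays among them, and as a second reading of the radiation difference.

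Ionizing radiation breaks both strands of DNA. In human cells the breaks are sensed by the kinase ATM, which starts a signalling cascade that raises transcripts such as CDKN1A, an inhibitor of the cell cycle. Radiation also activates repair of the breaks and halts cells before mitosis. None of these genes could be read here, because the arrays identify a probe only by a letter and a number, and 0 of the identifiers matched the gene table of the GRCh38.p14 annotation. The 18 gene lists for the radiation response and the 6 lists of cell type markers, 340 genes in all, were therefore not measured. The glioma label could not be checked against its markers. Each finding below is about probes, and the sources used here give no sequence or genome position for one.

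The arrays come in 2 designs, A and B, with 19700 probes each and 0 in common. Each design carries 1 control array and 1 radiation array, so no probe has a replicate, no error between samples can be given, and no test was possible. The 2 control arrays are not replicates of each other, nor are the 2 radiation arrays. The values are linear Cy3 intensities, the brightness of a probe on a 1-colour array. Their log2 values were quantile normalized within a design, which gives each of its 4 arrays the same distribution of values. A probe was counted as higher or lower where normalized radiation and control values lay 2-fold or more apart, a log2 difference of 1. Counting further required an intensity no lower than the array's own median in control, after radiation, or in both. These words state a size and not a test. In RNA pooled from a whole culture, a change in the make-up of the cells and a change of RNA per cell cannot be told apart.

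Before normalization the designs shifted in opposite directions. On design A the median intensity was 214 in control and 174 after 8.5 Gy, and the median log2 difference of a probe was -0.20. Intensities were higher after radiation at 33.7% of its probes. Medians on design B were 221 in control and 239 after 8.5 Gy, with a median log2 difference of 0.15 and 67.95% of probes brighter after radiation. The 95th percentile was 1022 in control and 880.0 after radiation on design A, and 822 and 940.2 on design B. A shift shared by most probes is removed by the normalization, so differences below are relative to the bulk of the array. After it, the median difference was 0.08 on design A and -0.004 on design B.

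Radiation and control differed more on design A than on design B. The normalized log2 difference had an SD across probes of 0.63 on design A and 0.39 on design B. The middle 50% of probes lay between -0.31 and 0.40 on design A and between -0.22 and 0.20 on design B. Log2 intensities of the control and radiation arrays correlated across probes at r = 0.865 on design A and r = 0.932 on design B, a description of the arrays, since probes are not independent replicates.

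After 8.5 Gy, 302 probes of design A were counted higher and 1023 lower. These were 2.61% and 8.85% of the 11554 probes that passed the intensity filter, 11.5% together. For design B the counts were 183 higher and 87 lower, 1.66% and 0.788% of the 11041 that passed, 2.45% together. The balance thus ran in opposite directions, with 22.8% of the counted probes higher on design A and 67.8% on design B. When cyclic loess replaced quantile normalization, 171 probes were higher on design A. A difference of 1 in the authors' rescaled scores, which centre both designs of a condition together, is not a 2-fold difference. Of the passing probes of design B with at least that score difference, 87.0% were higher. No value shows how many probes would pass the same size between 2 control arrays, since each design has only 1.

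On design A lower probes outnumbered higher ones at each size of difference from 2-fold to 16-fold, and on design B higher probes outnumbered lower ones up to 8-fold. On design A, 20 probes were higher by 4-fold or more and 171 lower by as much, and at 8-fold the counts were 4 and 28. For design B, 33 were higher by 4-fold or more and 12 lower, and at 8-fold the counts were 6 and 5. At 16-fold there were 2 higher and 6 lower on design A, and 0 higher and 1 lower on design B. The lower tail of design A also shows in its percentiles, with 1% of probes below -1.95 and 1% above 1.28. The same values on design B were -0.92 and 1.06.

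**Figure D1:**
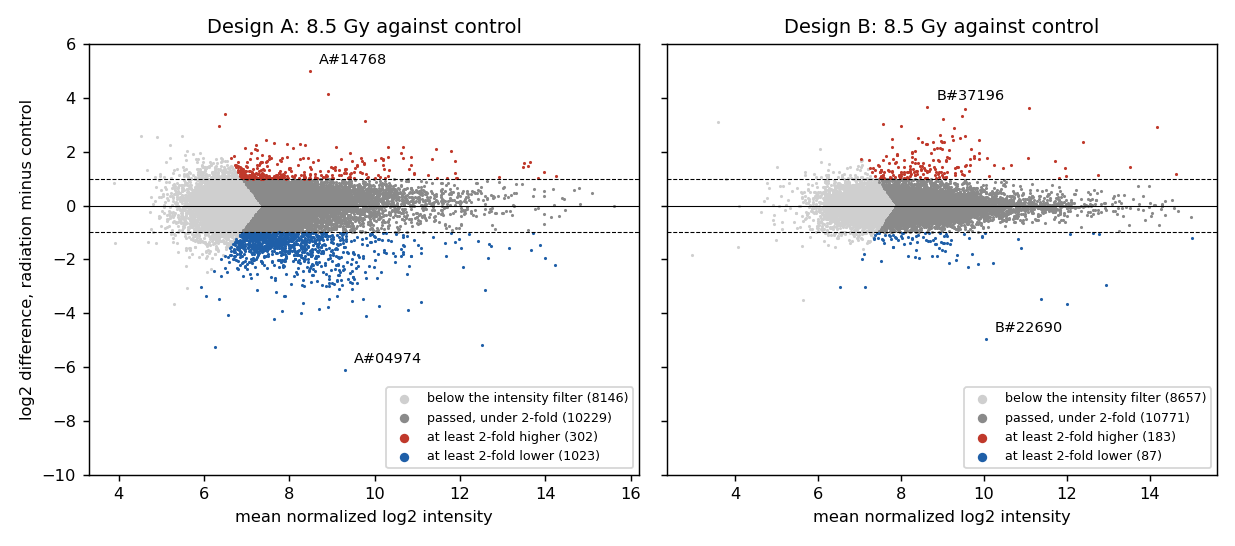
Each point is 1 probe, with the mean of its normalized log2 intensity in control and after 8.5 Gy on the horizontal axis and the log2 difference, radiation minus control, on the vertical axis. Dashed lines mark a difference of 1. Of the probes passing the intensity filter, design A has 1023 below the lower line against 302 above the upper, while design B has 183 above and 87 below. Probes under the filter are drawn too. With them, design A has 521 above and 1257 below, and design B has 230 above and 139 below.

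Brightness changed the balance on design A. Probes were divided into 4 classes of 25% by their mean value on the 2 arrays, and here counted without the filter. From the dimmest to the brightest class, the share at least 2-fold lower was 5.12%, 5.89%, 6.72% and 7.80%. The share at least 2-fold higher was 4.39% in the dimmest class, 1.42% in the third and 2.42% in the brightest. The rises and falls of design A were thus nearly balanced in the dimmest class, with 216 and 252, and unequal in the others. There were 116 and 290 in the second class, 70 and 331 in the third, and 119 and 384 in the brightest. In design B the brightest class held the most rises, 1.83% against 1.06% in the dimmest. Falls on design B were about as frequent at both ends, at 0.93% in the brightest and 1.18% in the dimmest class.

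Many counted probes crossed the middle of the array. The filter asks for the median on only 1 array, and a probe chosen for a gap will cross it more often than other probes. The counts here therefore describe the counted probes and are no separate result. The same share over all passing probes is not given here. Of the 1023 probes lower on design A, 650 (63.5%) were below the array median after radiation, and 52 of these had been among the brightest 10% in control. Of the 302 higher on design A, 181 had been below the median in control, and 6 of these reached the brightest 10% after 8.5 Gy. On design B, 107 of the 183 higher probes had been below the median in control and 21 of these reached the brightest 10%. Among its 87 lower probes, 42 ended below the median and 3 of these came from the brightest 10%. Such probes rest on a dim reading on 1 array, where the treatment of background has most weight. With both arrays at or above their median, 121 probes were higher and 373 lower on design A, and 76 and 45 on design B.

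In each design the probe with the largest rise and the one with the largest fall are described in full. The largest rise on design A was at A#14768. Its intensity was 83.2 in control, 74.0 with ligand, 2084 after 8.5 Gy and 80.1 after ligand plus radiation. The radiation array alone was bright, at the 98.4th percentile of its array, and the 3 others lay between the 5.65th and the 20.6th. The normalized log2 difference from control was 5.01, and radiation also exceeded ligand plus radiation by 4.38. The size rests on a dim control reading that is not shown to lie above background, and it was 5.85 after normexp with an offset of 16.

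The largest fall on design A was at A#04974, which read 6401 in control, 49.0 with ligand, 82.8 after 8.5 Gy and 49.5 after ligand plus radiation. Here the control array alone was bright, at the 99.5th percentile, and the 3 treated arrays were all at or below the 10.4th. The difference from control was -6.10, and -6.82 after normexp with an offset of 16, since its size rests on a dim radiation reading.

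On design B the largest rise was at B#37196, from 96.9 in control to 1372 after 8.5 Gy (log2 difference 3.67). The probe read 2897 with ligand and 3244 after ligand plus radiation. All 3 treated arrays were bright, at the 97.2nd percentile or above, against the 8.08th in control, and radiation was the lowest of the treated arrays.

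The largest fall on design B was at B#22690, from 4725 in control to 187 after 8.5 Gy, a log2 difference of -4.96. It stood at 171 with ligand and 168 after ligand plus radiation, so that control alone was bright. Of these 4 probes, A#14768 is the one where the radiation array stood apart from the other arrays. At the other 3 the control array did.

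**Figure D2:**
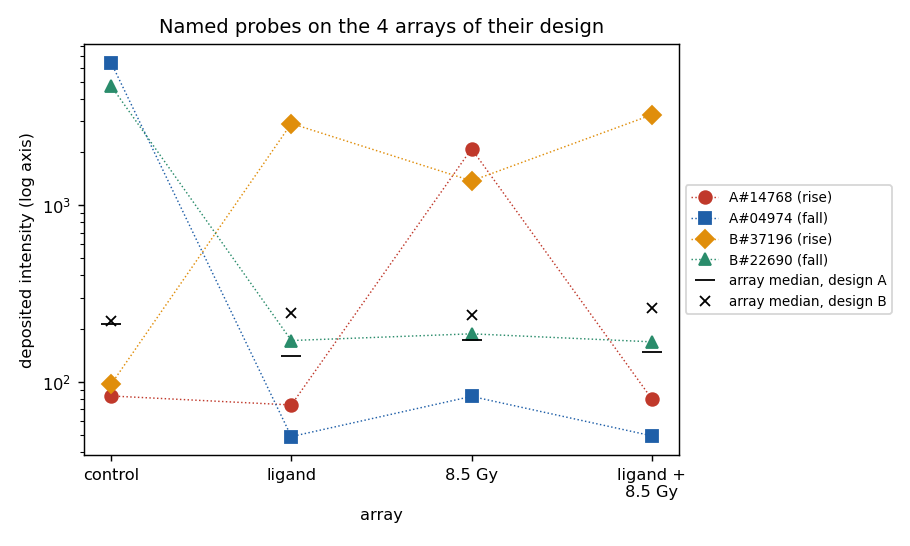
Deposited intensity (log axis) of the 4 named probes on the control, ligand, 8.5 Gy and ligand plus 8.5 Gy arrays of their design, with the array medians in black. A#14768 is bright, at 2084, on the 8.5 Gy array alone, A#04974 and B#22690 are bright on the control array alone, and B#37196 is dim, at 96.9, on the control array alone.

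The same question was put to all counted probes, by ranking the 4 arrays of a design at each probe. Among the 1023 probes lower after radiation on design A, control was the highest of the 4 arrays at 95.3%, and radiation was the lowest at 38.8%. Over all probes that passed the filter, these shares were 30.2% and 13.7%. Among the 302 higher probes, control was the lowest at 88.4% and radiation the highest at 63.2%, against 42.3% and 20.1% over all. Design B had control as the lowest at 79.8% of the higher and as the highest at 92.0% of the lower probes, against 27.5% and 36.9% over all. Radiation was the highest at 64.5% of the higher and the lowest at 56.3% of the lower probes there, against 26.2% and 21.5% over all. A probe chosen for a gap between control and radiation will have one of them at an end of the order more often than other probes, so these shares describe the counted probes and are no separate result. On both designs, control took the end of the order more often than radiation did, and this also held over all passing probes. Of all passing probes on design A, control was the lowest at 42.3% and radiation at 13.7%, and control was the highest at 30.2% and radiation at 20.1%. On design B these shares were 27.5% and 21.5% for the lowest, and 36.9% and 26.2% for the highest.

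Median levels show the same arrangement. The 1023 lower probes of design A had a median intensity of 440.4 in control and 142 after radiation, with 115 with ligand and 135 after ligand plus radiation. The 302 higher ones had 175 in control, 333 after radiation, 216 with ligand and 246 after ligand plus radiation. On design B the higher probes stood at 198.5 in control and 599 after radiation, with the ligand arrays at 394 and 454 between them. The 87 lower ones stood at 552 in control and 246 after radiation, with the ligand arrays at 314 and 269. These intensities are not normalized, and the medians of the arrays differ. After normalization, ligand minus control had a median of -1.55 for the lower and 1.01 for the higher probes of design A. On design B these medians were -1.02 and 0.96. Over all passing probes they were 0.09 on design A and -0.06 on design B. Ligand minus control uses the same control array by which the probes were chosen, so it is no separate result. The median normalized difference between radiation and ligand plus radiation was -0.22 for the lower probes of design A and -0.15 for those of design B. It was 0.34 and 0.22 for the higher probes. These are small beside the medians of -1.42, -1.29, 1.17 and 1.40 against control that chose the probes.

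Among the 6 pairs of arrays in each design, radiation and control were closer to each other than control was to either ligand-treated array. On design A, 11.5% of passing probes were counted between radiation and control, 21.5% between ligand and control, and 13.1% between ligand plus radiation and control. The shares on design B were 2.45%, 3.37% and 3.78%. These comparisons share the control array. Both irradiated arrays were the closest pair, with 4.17% of probes counted in design A and 1.85% in design B. The other pairs without control stood at 7.63% for radiation against ligand and 7.29% for ligand plus radiation against ligand on design A, so that every pair with control lay above every pair without it. For design B these pairs stood at 2.32% and 2.45%, the latter about as many as radiation against control.

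**Figure D3:**
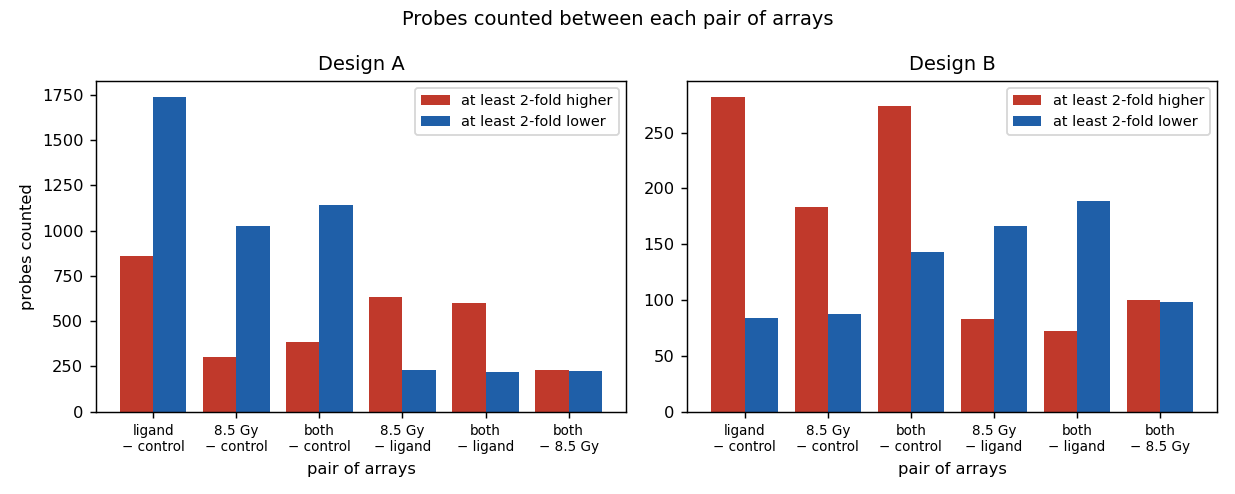
Number of probes at least 2-fold higher (red) and lower (blue) between each pair of arrays of a design, where "both" stands for ligand plus 8.5 Gy. The vertical scales of the designs differ. On design A the 3 pairs with control have the most counted probes and more lower than higher. In design B those 3 pairs have more higher than lower.

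A radiation difference can be read a second time as ligand plus radiation minus ligand, from arrays that entered the first reading only through the shared normalization. For the 1023 probes lower after radiation alone on design A, the median of this second difference was 0.26, and it was above 0 at 66.6% of them (95% binomial interval 63.6% to 69.5%, exact). Over all 11554 passing probes it was above 0 at 48.1%. With ligand, 152 of the 1023 (14.9%) were at least 2-fold higher after radiation and 24 (2.35%) at least 2-fold lower. Over all passing probes these shares were 5.40% and 1.38%. For the 302 probes higher after radiation alone the median was -0.13, and 40.7% were above 0 (35.1% to 46.5%). On the ligand array, the baseline of this reading, the lower probes lay a median of -1.55 from control and the higher ones 1.01. Ligand plus radiation lay -1.25 and 0.88 from control. Over all passing probes the medians were 0.09 for ligand and 0.10 for ligand plus radiation. Both differences use the control array by which the probes were chosen, so the shift from control in these sets is no separate result. With median scaling the shares above 0 were 62.5% for the lower and 64.6% for the higher probes, against 65.0% over all passing probes. Neither share then stood apart from the rest, and the size of the second difference in these sets was not recomputed. The intervals cover counting error only, and probes of 1 array are not independent.

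In design B the medians of the second reading went in the direction of the first. For the higher probes this was small, and their share above 0 did not stay above 50% in every setting. For the 87 lower probes its median was -0.16, and 34.5% were above 0 (24.6% to 45.4%), against 52.1% of all 11041 passing probes. At least 2-fold differences were downward at 11 of the 87 (12.6%) and upward at 1 (1.15%), against 1.47% and 0.498% of all passing probes. For the 183 higher probes the median was 0.08 and 58.5% were above 0 (51.0% to 65.7%), an interval that includes the 52.1% of all passing probes. Of these, 4 probes (2.19%) were past 2-fold in each direction, against 0.498% upward and 1.47% downward over all passing probes. The share above 0 was 47.4% where both control and radiation had to reach their median, against 52.8% of all probes passing there. With the authors' scores it was 44.2%, above the 27.5% of all passing probes. As on design A, the intervals cover counting error only, and probes of 1 array are not independent. With quantile normalization, the medians of the second differences were smaller than those of the first, which had been chosen for their size. On design A they were then opposite in direction. With median scaling, 64.6% of the probes counted higher on design A were above 0, so the median of these was above 0 too.

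**Figure D4:**
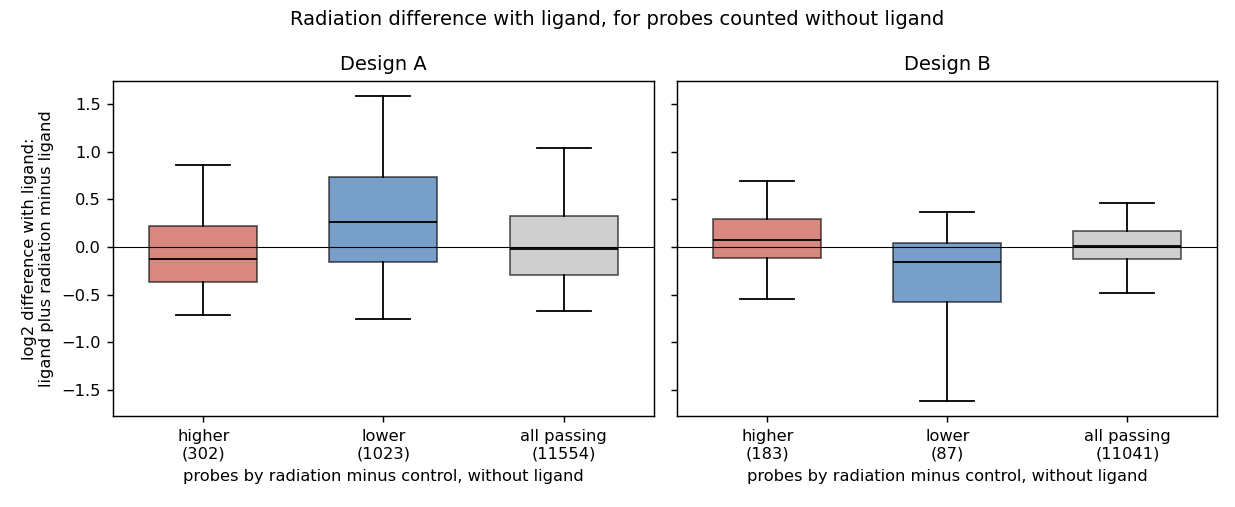
Log2 difference of ligand plus radiation minus ligand, for probes counted higher or lower in radiation minus control and for all probes that passed the filter. Boxes span the middle 50% of probes with the median as a line, and whiskers run from the 5th to the 95th percentile. On design A the lower probes have a median of 0.26 and the higher ones -0.13, while on design B the medians are -0.16 and 0.08.

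The relation between both readings varied with brightness on design A. Across the probes of each brightness class, from dim to bright, they correlated at r = -0.013, -0.14, -0.18 and -0.30. In design B the values were 0.12, 0.15, 0.091 and 0.16. These are descriptions across probes that share 4 arrays, with no test.

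The share of counted probes also varied along the probe numbers of design A. With the probes put in order of number and divided into 10 classes, between 4.22% and 13.1% of the passing probes in a class were lower after radiation, and between 1.24% and 4.58% were higher. The last class had the fewest lower probes (58) and the most higher ones (63), with a median difference of 0.25. The sixth class had the largest share of lower and the smallest share of higher probes, with a median of -0.06. On design B the class medians lay between -0.04 and 0.03, the lower share between 0.27% and 1.09% and the higher share between 1.01% and 2.51%. Whether probe number follows the place of a probe on the slide is not given in the sources used here. After the running median along probe number was removed, 201 probes were higher and 1118 lower on design A, of which 192 and 990 had been counted before.

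**Figure D5:**
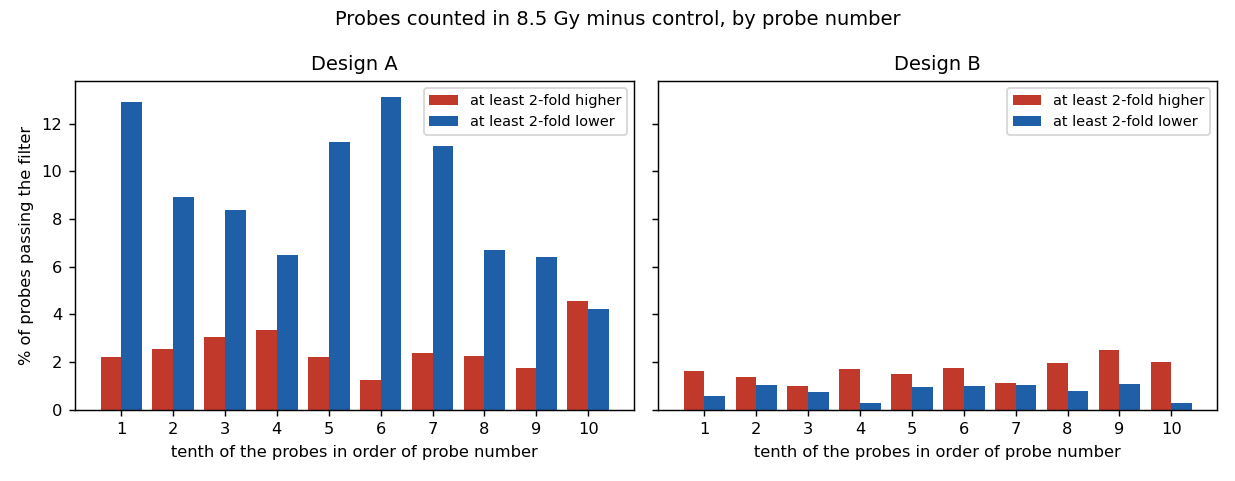
Share of the probes passing the filter that were at least 2-fold higher (red) or lower (blue) after 8.5 Gy, in 10 equal classes along probe number. On design A the lower share runs from 4.22% in the last class to 13.1% in the sixth, and on design B no class exceeds 2.51% in either direction.

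The counted probes were also followed through other ways of making the arrays comparable. Median scaling, cyclic loess, quantile normalization over the control and radiation arrays alone, background correction with 2 offsets and removal of the running median gave 6 other versions. Of the 1023 lower probes of design A, 901 were counted in all 6, and of the 302 higher probes 146 were. On design B, 174 of the 183 higher and 73 of the 87 lower probes were counted in all 6, though the lower count grew from 87 to 218 with normexp at an offset of 16. All these versions start from the same 4 arrays of a design, so they say nothing of what a second culture would give.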

How the data were processed

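The authors deposited 1 linear intensity per probe and array. Per the labels' protocols, each array carries Cy3-labelled RNA made from 5 µg of total RNA by a 16 h transcription step. The sources used here do not name the scanner, the image software or the background treatment. The deposited score tables were compared with log2 intensities and served as an alternative. Log2 intensities were quantile normalized per design with limma 3.58.1 in R 4.3.3, and counts were made in Python 3.11.15. A value of 0.001 occurs once on the radiation array and once on the ligand plus radiation array of design B. These probes were left out, which leaves 19698. The running median spanned 501 probes. The counting steps were run on simulated data, with differences planted only in probes at or above the median mean brightness. That run does not cover dim probes and gives no error for these arrays. No background columns were available, so normexp (offsets 50 and 16) ran on the single column. Named probes are the largest rise and the largest fall of each design among those passing the filter. The members, lists and rules were chosen with earlier results of these data known. Precision is limited by the number of arrays, 1 per condition on each design.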

Additional observations from a re-analysis of the deposited data

Results flagged for a closer look

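At 3 results the radiation difference, with quantile normalization, had one sign without ligand and the other with it. The difference between the 2 readings was not tested, since each rests on 1 array per condition. At A#04974 the log2 difference was -6.10 without ligand and 0.24 with it, and both arrays of the second reading were dim (49.0 and 49.5). The probes counted lower on design A had a median of -1.42 without ligand and 0.26 with it, and those counted higher 1.17 and -0.13. Ligand alone lay a median of -1.55 from control for the lower and 1.01 for the higher probes, against 0.09 over all passing probes. That difference uses the control array by which the probes were chosen, so it is no separate result. With median scaling, 65.0% of all passing probes of design A were above 0 with ligand. This was close to the 62.5% of the lower and the 64.6% of the higher probes. The contrast with other probes in this share is thus not seen under that scaling. For the higher probes it is not seen with cyclic loess (48.0% against 49.7%) or at a log2 threshold of 1.5 (50.0% against 48.1%) either.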

How the results depend on the processing

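Counts are given as higher and lower after radiation. Of 40 recomputed counts, 21 stayed within 1.5 times the reported ones. On design A, where 302 and 1023 were reported, there were 171 higher with cyclic loess, 544 with normexp at offset 16, 521 without a filter and 201 after removal of the running median. There were 121 and 373 with both arrays at or above their median, 70 and 444 at a log2 threshold of 1.5, and 2488 lower with the authors' scores. On design B, where 183 and 87 were reported, there were 139 lower with normexp at offset 50, 343 and 218 at offset 16, 139 lower without a filter, 76 and 45 with both arrays at or above their median, 73 and 28 at the threshold of 1.5, and 972 and 145 with the authors' scores. The scores have slopes above 1, are centred over both designs and are not quantile normalized, and the parts of these were not separated. The share higher was 15.1% on design A and 87.0% on design B with the scores, against 22.8% and 67.8%. The median difference over all probes was -0.18 and 0.33 with the scores, and 0.10 on design A with median scaling.

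The share above 0 with ligand changed side of 50% in 3 cases. It was 64.6% with median scaling for the higher probes of design A, where 65.0% of all passing probes were above 0. For those of design B it was 47.4% with both arrays at or above their median (52.8% of all) and 44.2% with the authors' scores (27.5% of all). For the higher probes of design A it was also 48.0% with cyclic loess, 50.0% at the threshold of 1.5, 48.8% after removal of the running median and 49.3% with the scores, against 49.7%, 48.1%, 52.4% and 57.8% of all passing probes. For its lower probes it was 62.5% with median scaling (65.0% of all) and 78.0% with both arrays at or above their median (48.4% of all). For the lower probes of design B it was 24.1% with the scores, close to the 27.5% of all passing probes. The cause was not tested. Normalizing control and radiation alone gives no such share.

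The 4 named probes kept their direction in the 6 other log2 settings run, from 4.87 to 5.85 at A#14768, -6.82 to -5.97 at A#04974, 3.60 to 4.83 at B#37196 and -5.60 to -4.77 at B#22690. Their differences in the authors' scores, which are not log2 units, were 7.22, -9.63, 5.97 and -7.17. No paired analysis was possible because each design has 1 array per condition, and leaving out an array leaves no comparison.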

Other observations

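The deposited score tables follow a simple form that the labels do not state. In every column the score was a straight line of log2 intensity, with residuals of at most 5.2e-05. The slope and the zero point were the same on designs A and B within a condition. For control they were 1.57 and 7.77, and for radiation 1.51 and 7.69. They equal 1 over the median absolute deviation, and the median, of log2 intensity taken over the arrays of both designs together. A difference of 1 between scores is therefore not a 2-fold difference, and an offset between the designs stays in the scores. The median score was -0.045 in control and -0.37 after radiation on design A, and 0.03 and 0.33 on design B. The median difference of a probe, radiation minus control, was -0.18 on design A and 0.33 on design B.

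Nearly all intensities were deposited with at most 2 decimals. Values that are exact multiples of 0.5 as deposited (tolerance 0) made up 7.23% of the control array and 26.6% of the radiation array on design A, and 22.2% and 3.36% on design B. How such values arise is not given in the sources used here, and their part in the differences was not tested.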
